A study of Mus musculus with 12 samples.

Results

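Nodal, Lefty1, Lefty2, Tdgf1, Smad7 and Skil were followed across mouse embryonic stem (ES) cells grown without and with serum. They are a ligand, a pair of secreted antagonists, a co-receptor and a pair of intracellular inhibitors of one signalling pathway. They were picked by name: every probe that the array files call by one of these gene names was taken. The names were chosen with earlier results of these data known. Counts of called genes set beside the shares over all genes are therefore a description and no test of the choice. That gave 7 probes for 6 genes, out of 41174 probes and 27730 genes on the array; Skil had 2 probes and each of the others 1. All 7 were well above background on all 12 arrays, and none was saturated on any.

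The series measured total RNA on 12 one-colour Agilent arrays, with 1 array for each combination of cell line, arm and day. The arm that the labels name the 2i condition was serum-free: cells were kept in B27N2 medium, and 2 arrays were made at each of days 0, 3 and 10. In the FBS arm cells were kept in DMEM with 15% fetal bovine serum (FBS), again with 2 arrays at each of days 0, 3 and 10. In each group 1 array came from the Dazl-GFP line and 1 from the Stella-GFP line, a pair of reporter lines named after germ cell genes. Every culture had leukemia inhibitory factor (LIF) and gamma-irradiated mouse embryonic fibroblasts as feeder cells, whose RNA is part of what was measured. The labels list 1 µM of the MEK inhibitor PD0325901 and 5 µM of the GSK3β inhibitor Kenpaullone for the 2i experiments. Whether inhibitors were also given in the FBS arm, and what serum-free cells were given before the day 0 harvest, is not in the labels. The growth protocol names no passage number and no number of clones per line.

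Nodal is a secreted ligand of the transforming growth factor β (TGFβ) family that, with the co-receptor Tdgf1 (Cripto), activates activin receptors, which phosphorylate SMAD2 and SMAD3. These join SMAD4 and partners such as FOXH1 and switch on targets, among them Nodal itself and its antagonists Lefty1 and Lefty2, which close a negative feedback loop. Smad7 blocks the receptors and Skil (SnoN) represses SMAD target genes in the nucleus. Both are induced by TGFβ-family signals. In the mouse embryo the pathway patterns the epiblast, the primitive streak and the left-right axis, and in cultured ES cells it is active without added ligand.

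On the RefSeq annotation of assembly GRCm38.p6, Nodal lies at chr10:61417972-61425338 and Tdgf1 at chr9:110939608-110946158. Lefty2 lies at chr1:180893108-180899107 and Lefty1 at chr1:180935022-180938401. The antagonist genes are paralogs 35914 bases apart, with 1 protein-coding gene between them, and whether their probes read each other's RNA was not tested. Skil lies at chr3:31095058-31122923. The positions of the probes within the transcripts were not used here. The table of RefSeq promoter sequences used here held 2 of the 6 genes, Nodal and Tdgf1, the ligand and its co-receptor. They are shown as the 250 bases before the annotated start, 5′ to 3′ on the strand of the gene, Nodal at chr10:61417722-61417971 on the plus strand and Tdgf1 at chr9:110946159-110946408 on the minus strand. Capitals mark the match to a searched motif.

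Nodal promoter: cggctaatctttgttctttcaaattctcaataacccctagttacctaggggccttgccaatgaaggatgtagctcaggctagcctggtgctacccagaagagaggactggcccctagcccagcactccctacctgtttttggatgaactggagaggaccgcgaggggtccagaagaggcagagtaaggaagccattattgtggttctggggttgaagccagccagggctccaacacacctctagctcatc
Tdgf1 promoter: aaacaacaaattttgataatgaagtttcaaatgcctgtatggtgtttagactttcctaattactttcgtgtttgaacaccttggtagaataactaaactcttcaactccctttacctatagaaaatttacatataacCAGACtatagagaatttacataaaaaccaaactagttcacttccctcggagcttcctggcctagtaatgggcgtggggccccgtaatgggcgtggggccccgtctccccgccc

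3 motifs were searched on both strands: the SMAD binding element CAGAC, the FOXH1 core AATNCACA and the TCF/LEF core TCAAAG. The Tdgf1 window held 1 match, to CAGAC starting 113 bases before the annotated start, and the Nodal window held none. Of 32817 mouse promoter windows of the same length 42.2% held CAGAC, 3.18% held AATNCACA and 13.8% held TCAAAG.

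On the 12 arrays 64% to 74.4% of spots lay well above background, and their 75th percentile ranged over 454 to 947 intensity units. Levels below are log2 intensity minus the array's own log2 75th percentile, so that 0 is the 75th percentile of that array, and the level of one probe is not set against that of another. Changes are log2 differences from a limma fit over 21345 genes and all 12 arrays with cell line as a block. They carry their SE and a Benjamini-Hochberg p adjusted over all of those genes, called at 0.05. The line block takes out a constant difference between the 2 lines. The p-values thus measure how unevenly the lines changed across the 6 groups, and the 2 arrays per group limit the precision. The arrays lay on 3 slides. Of the serum-free arrays, the 3 of Stella-GFP and Dazl-GFP day 10 shared slide 3, while Dazl-GFP days 0 and 3 were on slide 2. Of the FBS arrays, the 3 of Dazl-GFP and Stella-GFP day 0 shared slide 1, while Stella-GFP days 3 and 10 were on slide 2. No slide held both arms at day 0 or at day 10, so at those days slide and arm cannot be told apart by a within-slide value. All 7 summed ES cell markers (Pou5f1, Nanog, Sox2, Zfp42, Esrrb, Dppa5a and Utf1) were above background on every array.

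At days 3 and 10 the antagonist genes differed more between the arms than the other 4 genes did, by their representative probes. Lefty1 was lower in the serum-free arm at all 3 days, and Lefty2 was lower at days 3 and 10. Tdgf1 was lower at day 3 and Smad7 at day 10, by less, and the ligand Nodal passed the test between the arms at no day. At day 0, 1 of the 6 genes was called (lower), where 1.89% of all genes tested were called and 0.867% were called lower. At day 3, 3 were called, all lower, against 22.6% of all genes called and 13.6% called lower. At day 10, 3 were called, all lower, against 5.63% of all genes called and 3.62% called lower. The median difference of the 6 genes was -0.86 at day 0, -0.45 at day 3 and -0.57 at day 10, beside -0.02, -0.21 and 0.11 over all genes. In such bulk RNA, fewer cells that express a gene and less RNA per cell cannot be told apart.

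**Figure D1:**
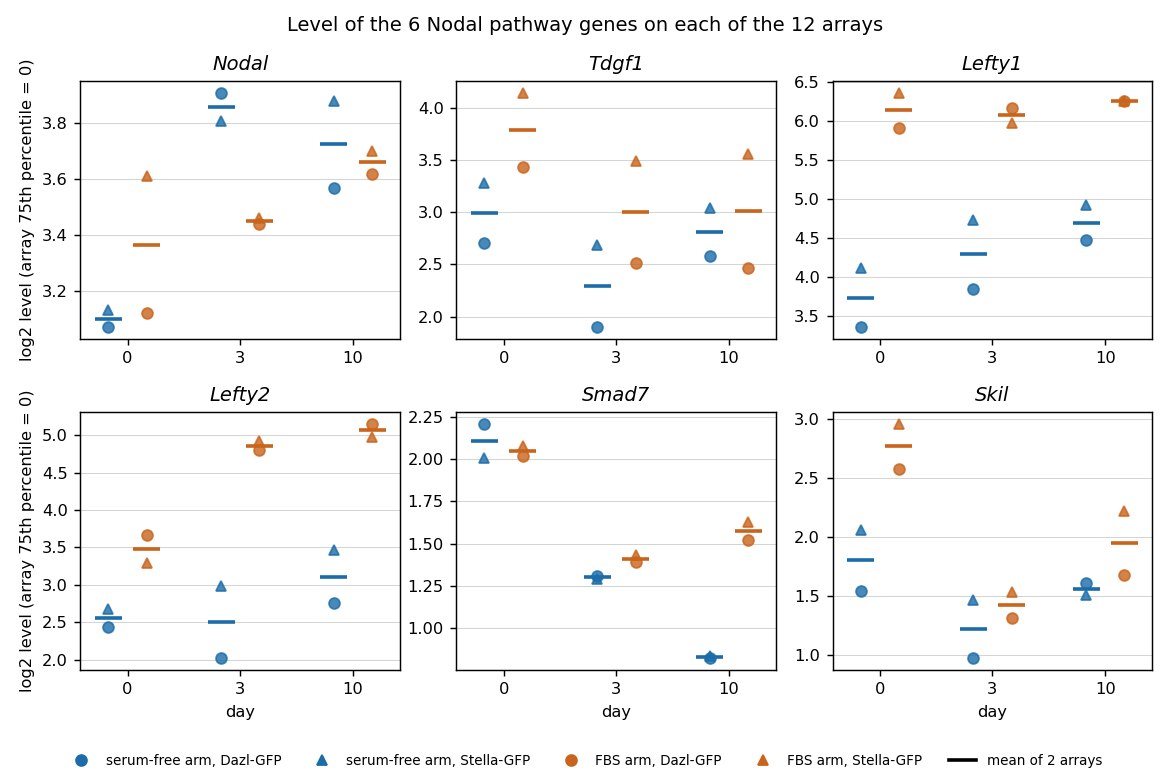
Log2 level of each of the 6 genes (array 75th percentile = 0) against day, 1 point per array, serum-free arm in blue to the left and FBS arm in orange to the right of each day; circles are Dazl-GFP, triangles Stella-GFP and lines the mean of the 2 arrays. Each panel has its own vertical axis. Lefty1 shows 4.92 as the highest serum-free level and 5.91 as the lowest FBS level. Lefty2 parts at each day, and at day 0 by the least (at most 2.67 serum-free, at least 3.29 FBS).

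Nodal, the ligand, had log2 levels of 3.07 and 3.13 at day 0, 3.91 and 3.81 at day 3, and 3.57 and 3.88 at day 10 in the serum-free arm (Dazl-GFP, then Stella-GFP, here and below). The FBS levels were 3.12 and 3.61 at day 0, 3.44 and 3.46 at day 3, and 3.62 and 3.70 at day 10. The lowest 3 values were those of both serum-free arrays and the FBS Dazl-GFP array at day 0, and at day 3 both serum-free arrays were above both FBS arrays. Within the serum-free arm Nodal rose by 0.76 at day 3 over day 0 (SE 0.18, limma adjusted p = 0.0359), a 1.69-fold higher level. At day 10 the change over day 0 was 0.62 (SE 0.18, limma adjusted p = 0.0962). For FBS cells the changes were 0.08 at day 3 and 0.29 at day 10 (SE 0.18 each), and neither passed. The difference between the arms in the day 3 change was 0.67 (SE 0.26, limma adjusted p = 0.167), so the test did not show that the arms moved differently. The arm difference of Nodal was -0.27 at day 0, 0.41 at day 3 and 0.06 at day 10 (SE 0.18 each, limma adjusted p = 0.407, 0.142 and 0.853). Under quantile normalization the day 3 difference was 0.66 (adjusted p = 0.0278). The day 3 rise was not called after leaving out either line's array of the serum-free day 0, serum-free day 3, FBS day 3 or FBS day 10 group, with changes of 0.61 to 0.90 and adjusted p up to 0.196. Within slide 2 it was 0.84 (Dazl-GFP) and within slide 3 0.68 (Stella-GFP). In order of mean level the groups ran serum-free day 3, serum-free day 10, FBS day 10, FBS day 3, FBS day 0 and serum-free day 0. Of the neighbours in that order only FBS day 10 and FBS day 3 had ranges that did not overlap.

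Tdgf1, the co-receptor that Nodal needs for signalling, had levels of 2.71 and 3.28 at day 0, 1.90 and 2.69 at day 3, and 2.58 and 3.04 at day 10 in the serum-free arm. FBS cells had 3.44 and 4.15 at day 0, 2.51 and 3.49 at day 3, and 2.47 and 3.56 at day 10. The arms overlapped at days 3 and 10, and Stella-GFP was the higher line in every group. Within each line the serum-free array was the lower one, except for Dazl-GFP at day 10. At day 3 Tdgf1 was lower in the serum-free arm by 0.70 (log2 -0.70, SE 0.19, limma adjusted p = 0.0386), 1.63-fold. At day 0 the difference was -0.80 (SE 0.19, limma adjusted p = 0.0787) and at day 10 it was -0.20 (SE 0.19, limma adjusted p = 0.546). Against day 0, the serum-free changes were -0.70 at day 3 (SE 0.19, limma adjusted p = 0.0526) and -0.18 at day 10 (SE 0.19, limma adjusted p = 0.581). Tdgf1 fell in the FBS arm by 0.79 at day 3 and by 0.78 at day 10 against day 0 (SE 0.19, limma adjusted p = 0.0398 for both). These calls were close to the threshold. The day 3 arm difference was not called after leaving out either array of the FBS day 3, serum-free day 3 or serum-free day 0 group (-0.83 to -0.58, adjusted p up to 0.169). It held in 3 of the 9 other settings and was also lost with quantile normalization (-0.54, adjusted p = 0.0889), normexp (-0.61, 0.492), the authors' table (-0.57, 0.119), no filter on dim genes (-0.70, 0.0547) and no line block (-0.70, 0.329). The FBS day 3 fall was not called after leaving out any of the 8 arrays of days 0 and 3 (-0.92 to -0.67, adjusted p up to 0.184), and the FBS day 10 fall was lost after leaving out any array other than the serum-free day 10 ones (-0.98 to -0.58, adjusted p up to 0.225). With slide as a block the arm difference at day 3 was -0.98 (adjusted p = 0.0689) and the FBS day 3 change -1.02 (adjusted p = 0.0539). Within slide 1 the FBS Dazl-GFP changes were -0.93 at day 3 and -0.97 at day 10. The groups ran, by mean level, FBS day 0, FBS day 10, FBS day 3, serum-free day 0, serum-free day 10 and serum-free day 3, and every pair of neighbours overlapped.

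The line term was called for 1 of the 6 genes, Tdgf1, where 2.68% of all genes were called and 1.59% were called lower in Dazl-GFP. Tdgf1 was lower in Dazl-GFP than in Stella-GFP in 6 of 6 groups, by 0.76 on average (log2 -0.76, SE 0.11, limma adjusted p = 0.0177), 1.70-fold. Each line is a single line here, so line and reporter construct cannot be told apart. The call was lost after leaving out any array of the FBS day 3, FBS day 10, serum-free day 0 or serum-free day 3 group (-0.80 to -0.70 without them, adjusted p up to 0.0681), and with slide as a block the value was -0.58 (adjusted p = 0.307). For the other members the line difference was -0.14 for Nodal, -0.39 for Lefty1, -0.25 for Lefty2, 0.00 for Smad7 and -0.34 for Skil. The arm difference itself was not shown to depend on the line: a term of line by arm was called for 0 of 21345 genes by limma, with 630 genes and none of the 6 at an unadjusted p under 0.05.

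Lefty1, a secreted antagonist that binds Nodal and its co-receptor, had levels of 3.36 and 4.11 at day 0, 3.85 and 4.73 at day 3, and 4.47 and 4.92 at day 10 in the serum-free arm. FBS cells had levels of 5.91 and 6.36 at day 0, 6.17 and 5.97 at day 3, and 6.26 and 6.25 at day 10. All 6 serum-free arrays lay below all 6 FBS arrays, and the lines were farther apart in the serum-free arm, with the Stella-GFP array the higher one at each day. The difference was -2.40 at day 0 (SE 0.28, limma adjusted p = 0.0222), 5.27-fold lower. It was -1.78 at day 3 (SE 0.28, limma adjusted p = 0.00705) and -1.57 at day 10 (SE 0.28, limma adjusted p = 0.0254), 3.43-fold and 2.96-fold lower. Both lines had the same direction: at day 3 the difference was -2.32 in Dazl-GFP and -1.23 in Stella-GFP. Averaged over the days in a model of arm, day and line it was -1.91 (SE 0.19, limma adjusted p = 0.00188), and that call held after leaving out each array in turn (-2.02 to -1.79). That model counts the 6 arrays of an arm as separate values, although they come from the same 2 lines on successive days.

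In the serum-free arm Lefty1 was 0.56 above day 0 at day 3 (SE 0.28, limma adjusted p = 0.223) and 0.96 above at day 10 (SE 0.28, limma adjusted p = 0.0933), in both lines each time and without passing. Its FBS level differed from day 0 by -0.07 at day 3 and 0.12 at day 10 (SE 0.28), neither passing. The day 10 changes of the arms differed by 0.83 (SE 0.39, limma adjusted p = 0.29), which was not called. The groups ran FBS day 10, FBS day 0, FBS day 3, serum-free day 10, serum-free day 3 and serum-free day 0. The only neighbours that did not overlap were FBS day 3 and serum-free day 10. The day 0 call was lost without serum-free Dazl-GFP day 0 (-2.18, adjusted p = 0.156), serum-free Stella-GFP day 0 (-2.61, adjusted p = 0.0743) or FBS Stella-GFP day 0 (-2.36, adjusted p = 0.0578). The day 3 call was lost without serum-free Dazl-GFP day 3 (-1.48, adjusted p = 0.0546) or FBS Dazl-GFP day 3 (-1.42, adjusted p = 0.051). The day 10 call was lost without any of the 4 arrays of that day (-1.81 to -1.33, adjusted p up to 0.151). With slide as a block the difference was -2.02 at day 0 (adjusted p = 0.316), -1.68 at day 3 (adjusted p = 0.0342), -1.65 at day 10 (adjusted p = 0.309) and -1.70 over all days (adjusted p = 0.144). Within slide 2 the day 3 difference, serum-free Dazl-GFP minus FBS Stella-GFP, was -2.12.

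Lefty2, the paralog with the same role, had levels of 2.44 and 2.67 at day 0, 2.02 and 2.98 at day 3, and 2.76 and 3.46 at day 10 in the serum-free arm. FBS cells had 3.66 and 3.29 at day 0, 4.80 and 4.92 at day 3, and 5.15 and 4.98 at day 10. The serum-free arrays lay below the FBS arrays at each day, and both FBS arrays at days 3 and 10 lay above all other arrays. Against day 0, no serum-free change of Lefty2 passed, and it rose in FBS cells. In the serum-free arm the changes were -0.05 at day 3 (SE 0.32), down in Dazl-GFP and up in Stella-GFP, and 0.55 at day 10 (SE 0.32, limma adjusted p = 0.311). Lefty2 rose in the FBS arm by 1.38 at day 3 over day 0 (SE 0.32, limma adjusted p = 0.0346), 2.60-fold, and by 1.59 at day 10 (SE 0.32, limma adjusted p = 0.0198), 3.01-fold. The day 3 changes of the arms differed by -1.43 (SE 0.46, limma adjusted p = 0.117), and the day 10 changes by -1.03 (SE 0.46, limma adjusted p = 0.264). Neither passed.

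The arm difference of Lefty2 was -0.92 at day 0 (SE 0.32, limma adjusted p = 0.156). At day 3 it was -2.36 (SE 0.32, limma adjusted p = 0.00478), 5.13-fold lower, and at day 10 it was -1.96 (SE 0.32, limma adjusted p = 0.0207), 3.88-fold lower. Over all days it was -1.75 (SE 0.26, limma adjusted p = 0.00587). The day 3 call held in all 9 other settings tried, and the difference was -2.79 to -1.93 after leaving out each of the 12 arrays. Within slide 2 the value was -2.90, serum-free Dazl-GFP minus FBS Stella-GFP, which mixes line with arm. Within a line the day 3 difference was -2.79 in Dazl-GFP and -1.93 in Stella-GFP. The day 10 call was lost without any of the 4 arrays of that day (-2.23 to -1.69, adjusted p up to 0.144). With slide as a block the difference was -2.48 at day 3 (adjusted p = 0.0477), -2.30 at day 10 (adjusted p = 0.348) and -2.37 over all days (adjusted p = 0.219). The FBS day 3 rise was not called without FBS Stella-GFP day 0 (1.01, adjusted p = 0.133), either FBS day 3 array or either serum-free day 0 array (1.01 to 1.75 over all 12, adjusted p up to 0.145), nor with quantile normalization (1.15, adjusted p = 0.0924) or normexp (1.70, adjusted p = 0.0786). The FBS day 10 rise was not called without FBS Stella-GFP day 0 (1.22, adjusted p = 0.0991) or either FBS day 10 array (1.84 and 1.34). With slide as a block these rises were 1.48 (adjusted p = 0.0929) and 1.68 (adjusted p = 0.0623), and within slide 1 the FBS Dazl-GFP changes were 1.14 and 1.49. By mean level the groups ran FBS day 10, FBS day 3, FBS day 0, serum-free day 10, serum-free day 0 and serum-free day 3. FBS day 0 overlapped serum-free day 10, and serum-free day 0 overlapped serum-free day 3.

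**Figure D2:**
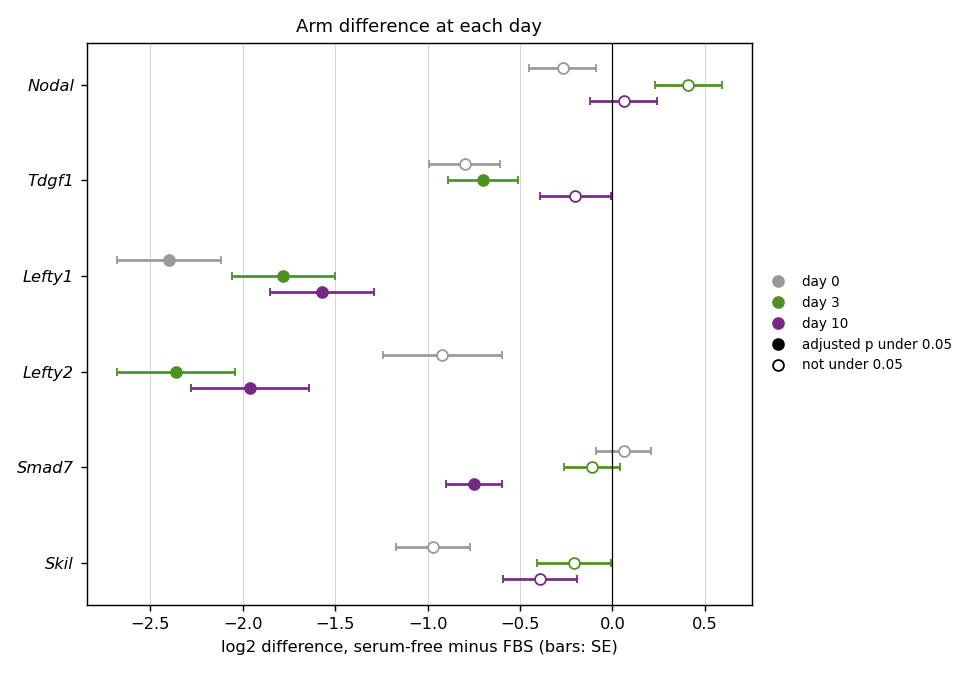
Log2 difference, serum-free minus FBS, for each gene at days 0, 3 and 10, with the SE of the limma fit as bars; filled points had an adjusted p under 0.05. Lefty1 lies between -2.40 and -1.57 at the 3 days, Lefty2 reaches -2.36 at day 3, and Nodal lies between -0.27 and 0.41.

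Smad7, on chromosome 18, is the inhibitory SMAD that targets the receptors for degradation. It had levels of 2.21 and 2.01 at day 0, 1.31 and 1.29 at day 3, and 0.82 and 0.83 at day 10 in the serum-free arm. Levels in the FBS arm were 2.02 and 2.08 at day 0, 1.39 and 1.43 at day 3, and 1.52 and 1.63 at day 10. The arms overlapped at day 0, both stood lower at day 3, and at day 10 the serum-free arrays were the lowest of the 12. Smad7 fell in the serum-free arm by 0.81 at day 3 against day 0 (SE 0.15, limma adjusted p = 0.0166) and by 1.29 at day 10 (SE 0.15, limma adjusted p = 0.00876), 2.44-fold lower. Its FBS level fell by 0.65 at day 3 (SE 0.15, limma adjusted p = 0.0336), and the day 10 change was -0.47 (SE 0.15, limma adjusted p = 0.081). The arms differed by 0.06 at day 0 and by -0.11 at day 3 (SE 0.15). At day 10 the serum-free arm was lower, by 0.75 (log2 -0.75, SE 0.15, limma adjusted p = 0.0337), 1.69-fold. The day 10 changes of the arms differed by -0.82 (SE 0.21, limma adjusted p = 0.14), which did not pass.

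The Smad7 difference at day 10 kept its size after leaving out each array (-0.82 to -0.69), but the call was lost after leaving out any array other than the FBS day 0 ones (adjusted p up to 0.166). The serum-free day 3 fall was not called without either serum-free array of day 0 or day 3 (-0.94 to -0.69, adjusted p up to 0.137). The serum-free day 10 fall was not called without serum-free Dazl-GFP day 0 (-1.17, adjusted p = 0.0986) or serum-free Dazl-GFP day 10 (-1.28, adjusted p = 0.0773). The FBS day 3 fall was lost as a call after leaving out any array other than the serum-free day 10 ones (-0.68 to -0.61 over all 12, adjusted p up to 0.156). With slide as a block the day 10 arm difference was -0.62 (adjusted p = 0.494), the serum-free day 10 change -1.21 (adjusted p = 0.0702) and the FBS day 3 change -0.66 (adjusted p = 0.102). Within slide 3 the serum-free Stella-GFP changes were -0.72 at day 3 and -1.18 at day 10. The groups ran serum-free day 0, FBS day 0, FBS day 10, FBS day 3, serum-free day 3 and serum-free day 10, and only the day 0 groups overlapped.

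Skil, a nuclear corepressor of SMAD complexes, was read by a brighter and a dimmer probe, and the brighter one stood for the gene. It had levels of 1.54 and 2.06 at day 0, 0.97 and 1.46 at day 3, and 1.61 and 1.51 at day 10 in the serum-free arm. The FBS arrays gave 2.58 and 2.96 at day 0, 1.31 and 1.53 at day 3, and 1.68 and 2.22 at day 10. The FBS cells at day 0 stood above all others, and the arms overlapped at day 3. Against day 0, the serum-free changes were -0.59 at day 3 (SE 0.20, limma adjusted p = 0.0858) and -0.24 at day 10 (SE 0.20). Skil fell in the FBS arm by 1.36 at day 3 against day 0 (SE 0.20, limma adjusted p = 0.00867), 2.56-fold lower, and by 0.82 at day 10 (SE 0.20, limma adjusted p = 0.0344). The arm difference was -0.97 at day 0 (SE 0.20, limma adjusted p = 0.0581), -0.21 at day 3 and -0.39 at day 10, and the day 3 changes of the arms differed by 0.77 (SE 0.28, limma adjusted p = 0.15). By mean level the groups ran FBS day 0, FBS day 10, serum-free day 0, serum-free day 10, FBS day 3 and serum-free day 3, and only the top pair did not overlap.

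The FBS day 3 fall of Skil was not called without FBS Dazl-GFP day 3 (-1.43, adjusted p = 0.0512) or FBS Stella-GFP day 3 (-1.28, adjusted p = 0.0717). The FBS day 10 fall was lost as a call after leaving out any array other than the serum-free day 10 ones (-0.94 to -0.71 over all 12, adjusted p up to 0.189), and with slide as a block it was -0.94 (adjusted p = 0.0718). Within slide 1 the FBS Dazl-GFP changes were -1.28 at day 3 and -0.90 at day 10.

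The dimmer Skil probe had levels of -2.62 and -2.01 at day 0, -3.18 and -3.02 at day 3, and -2.82 and -2.49 at day 10 in the serum-free arm. The FBS arrays gave -1.29 and 0.05 at day 0, -1.41 and -1.74 at day 3, and -2.48 and -2.14 at day 10. The FBS arrays lay above the serum-free arrays at each day, which was not so for the brighter probe at day 3. When all probes were tested separately, the arm difference at day 3 was -1.53 for the dimmer probe (SE 0.34, limma adjusted p = 0.0204) and -0.21 for the brighter one (SE 0.20, limma adjusted p = 0.459). For the dimmer probe the FBS change was -0.96 at day 3 (SE 0.34, limma adjusted p = 0.113) and -1.69 at day 10 (SE 0.34, limma adjusted p = 0.0205). Over all days the arm difference was -1.19 for the dimmer probe (SE 0.27, limma adjusted p = 0.0264) and -0.52 for the brighter one (SE 0.16, limma adjusted p = 0.0692). Both probes were thus lower in the serum-free arm at day 3 and over all days, by unlike amounts, and only the dimmer one passed. The difference between probes was not tested.

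**Figure D3:**
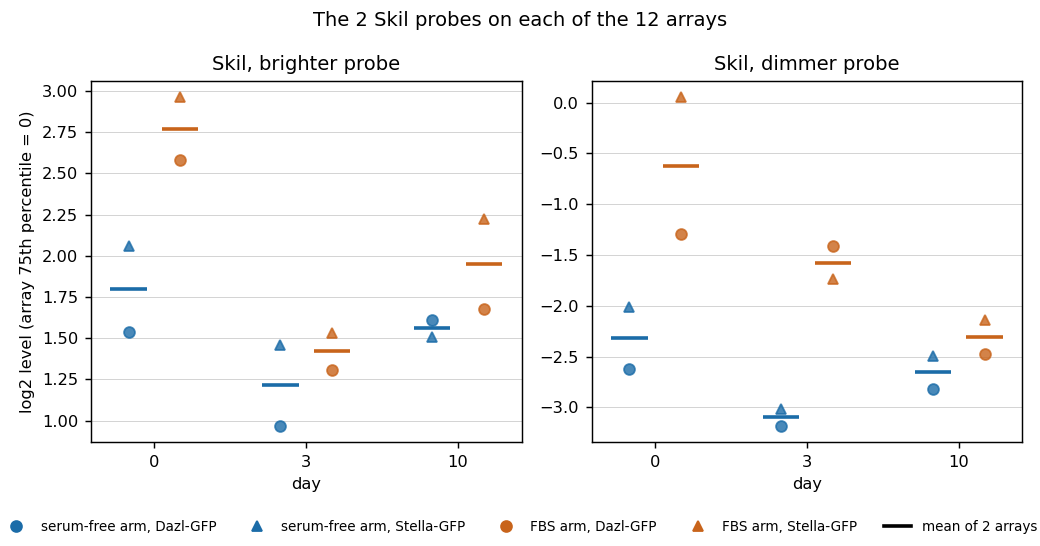
Log2 level (array 75th percentile = 0) of the brighter and the dimmer Skil probe against day, 1 point per array, with the serum-free arm to the left of the FBS arm; each panel has its own vertical axis and lines are means of the 2 arrays. At day 3 the arms overlap for the brighter probe (0.97 to 1.53) and lie apart for the dimmer probe, at most -3.02 in the serum-free arm and at least -1.74 in the FBS arm.

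The serum-free time course had 2 of the 6 genes called at day 3 over day 0, Nodal higher and Smad7 lower, where 13.9% of all genes were called, 5.91% higher and 7.95% lower. At day 10 over day 0 it had 1, Smad7, lower, where 5.25% of all genes were called and 3.07% were called lower. In the FBS arm 4 were called at day 3 over day 0, Lefty2 higher and Tdgf1, Smad7 and Skil lower, where 12% of all genes were called, 6.7% higher and 5.29% lower. At day 10 over day 0 it had 3, Lefty2 higher and Tdgf1 and Skil lower, where 12.9% were called, 7.58% higher and 5.34% lower. Between days 10 and 3 limma called 0 of the 6 in the serum-free arm (2 at an unadjusted p under 0.05, and 2.23% of all genes called) and 0 in the FBS arm (1 unadjusted, and 1.46% of all genes called). The test of whether the arms changed differently called 0 of the 6 by day 3 (3 unadjusted, and 1.63% of all genes called) and 0 by day 10 (1 unadjusted, and 0.0656% of all genes called). The arm differences and both time courses share the same arrays, so they are not independent of one another. Over all days 3 of the 6 genes were lower in the serum-free arm, Lefty1, Lefty2 and Tdgf1, where 9.29% of all genes were called and 5.18% were called lower. Tdgf1 averaged -0.57 (SE 0.15, limma adjusted p = 0.0404), which was lost as a call after leaving out any array other than the Dazl-GFP day 10 ones (-0.67 to -0.51, adjusted p up to 0.0978), and was -0.97 with slide as a block (adjusted p = 0.315).

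**Figure D4:**
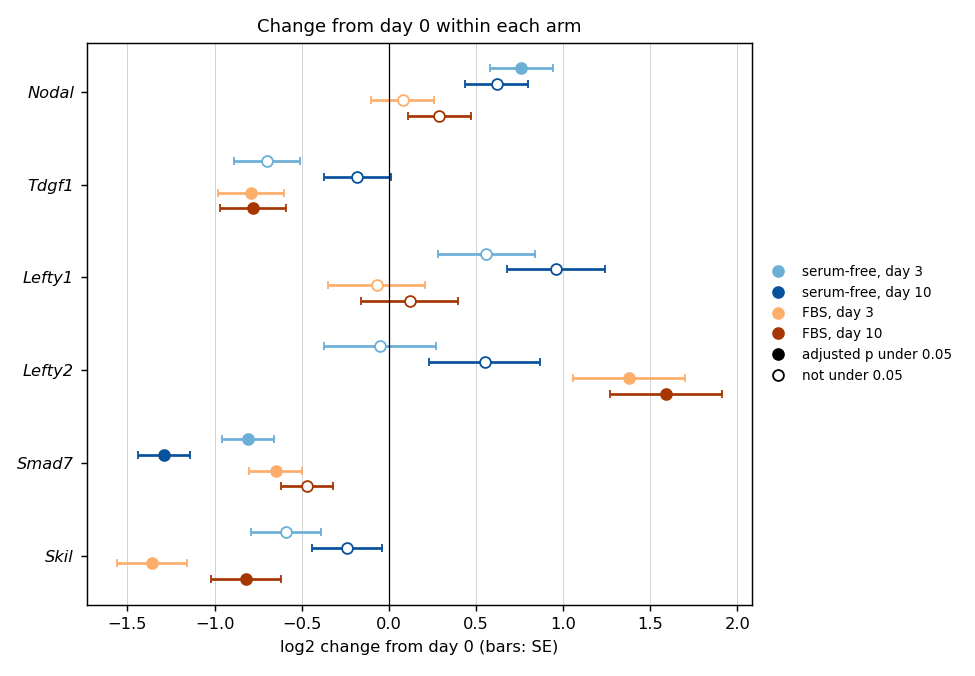
Log2 change from day 0 of each gene at days 3 and 10, in the serum-free arm (blue) and the FBS arm (orange), with the SE of the limma fit as bars; filled points had an adjusted p under 0.05. Lefty2 rose in the FBS arm (1.38 and 1.59), Smad7 fell most in the serum-free arm at day 10 (-1.29), and Skil fell most in the FBS arm at day 3 (-1.36).

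Markers of other cells differed between the arms at some of the days. The summed level of 19 feeder fibroblast markers, in multiples of the array's 75th percentile, was 45.8 to 56.1 in the serum-free arm and 109 to 176 in the FBS arm at day 3, with 18 of the 19 above background on each of those arrays. Among 18 tested, 15 were lower in serum-free cells and 1 was higher (Fn1, 1.01). Over all genes 13.6% were called lower and 8.99% higher at day 3. At day 0 the sums were 76.7 to 84.6 in the serum-free arm and 83.5 to 92.9 in the FBS arm. At day 10 they were 65.3 to 91.7 in the serum-free arm and 81.2 to 117 in the FBS arm. Of the 18, 1 was called lower at day 0 and 3 at day 10, and 0 were higher on either day. Over all genes 0.867% were called lower and 1.03% higher at day 0, and 3.62% and 2.01% at day 10. The 14 primitive endoderm markers summed to 24.2 to 44.7 in the serum-free arm and 20.7 to 31.2 in the FBS arm at day 3, with 7 of 14 higher in serum-free cells. At day 0 they summed to 28.2 to 31.1 in the serum-free arm and 15.6 to 19.2 in the FBS arm. At day 10 the sums were 10.3 to 16.7 in the serum-free arm and 21.9 to 26.1 in the FBS arm, the opposite order. Of the 14, 1 was called higher at day 0 and 1 was called lower at day 10. The 9 macrophage markers summed to 2 to 3.09 in the serum-free arm and 5.08 to 8.46 in the FBS arm at day 3. Of 8 tested, serum-free cells had 4 lower and 2 higher (Laptm5, 1.78, and Fcgr3, 1.42). The arms overlapped at day 0 (3.09 to 3.3 serum-free, 2.37 to 7.61 FBS) and at day 10 (1.98 to 2.82 and 2.28 to 2.73). Of the 8, 1 was called higher at day 0 and none was called at day 10. At day 3 the 7 ES cell markers without Tdgf1 summed to 574 to 651 (serum-free) and 532 to 635 (FBS). At day 0 they summed to 463 to 523 (serum-free) and 496 to 527 (FBS). Their day 10 sums were 371 to 502 (serum-free) and 620 to 670 (FBS), which weigh the brightest genes most. Of the 8 ES cell markers tested, Tdgf1 included, only Tdgf1 was called at day 3. At day 10, 0 of the 8 were called lower and 1 was higher (Utf1, 2.19). The part of these cells in the differences of Lefty1, Lefty2, Tdgf1 and Smad7 was not tested. The median gene at day 3 was itself lower in the serum-free arm (-0.21, or -0.08 with quantile normalization). Relative to that median Lefty1 differed by -1.57, Lefty2 by -2.15, Tdgf1 by -0.49 and Nodal by 0.62. At day 10, where the median gene was at 0.11, the same quantity was -1.68 for Lefty1, -2.07 for Lefty2 and -0.86 for Smad7.

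Other genes of the pathway were taken from 6 lists by role, 50 genes of which 48 were tested (all but Acvr1c and Mixl1). These lists too were chosen with earlier results of these data known. At day 3, 16 of the 48 were lower in serum-free cells and 2 higher, with a median of -0.40 beside -0.21 over all genes, of which 13.6% were called lower and 8.99% higher. Among the lower ones were Inhbb, which encodes an activin subunit (-3.70, SE 0.39, limma adjusted p = 0.00245), and Gsc, a target in the primitive streak (-2.70, SE 0.48, limma adjusted p = 0.00998). The type II TGFβ receptor Tgfbr2 differed by -2.44 (SE 0.22, limma adjusted p = 0.00169) and Inhba, which encodes another activin subunit, by -1.97 (SE 0.45, limma adjusted p = 0.0218). By role, 5 of 9 ligands and processing enzymes, 6 of 10 targets and 3 of 10 negative regulators were lower, and 1 negative regulator (Tgif1, 0.85) was higher. Of the 6 tested genes listed as secreted inhibitors, 1 was higher (Inha, 1.24) and 1 lower (Ltbp3, -1.15). Inha was not above background on the FBS Dazl-GFP day 3 array (level -6.46, beside -3.77 in Stella-GFP). None of the 7 tested SMADs and partners was called (median 0.12), and 1 of 6 receptors was lower. The fibroblast marker sums above differed at the same day, and their part in these differences was not tested.

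At day 0, 1 of the 48 was lower, the extracellular matrix gene Tgfbi (-0.92, SE 0.16, limma adjusted p = 0.0457), and 1 higher, the convertase Pcsk6, which cleaves the Nodal precursor (1.09, SE 0.17, limma adjusted p = 0.0307). The list median was 0.00 beside -0.02 over all genes, of which 0.867% were called lower and 1.03% higher. At day 10, 5 were lower and 2 higher, with a median of -0.15 beside 0.11 over all genes, of which 3.62% were called lower and 2.01% higher. Among the lower ones were Tgfbi (-1.80, SE 0.16, limma adjusted p = 0.00586), the convertase Furin (-1.27, SE 0.17, limma adjusted p = 0.0112) and the ligand Tgfb2 (-1.14, SE 0.24, limma adjusted p = 0.0402). Tgfb2 was dim, with levels of -5.49 to -3.37 over the 12 arrays, though above background on each. The ligand Tgfb3 was higher at day 10 (1.08, SE 0.24, limma adjusted p = 0.0471), while at day 3 it was lower (-1.68, SE 0.24, limma adjusted p = 0.00567).

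With time, 2 of the 48 rose and 9 fell in the serum-free arm at day 3 over day 0, beside 5.91% of all genes higher and 7.95% lower. At day 10 over day 0, 1 rose and 1 fell, beside 2.18% of all genes higher and 3.07% lower. Among FBS cells 7 rose and 3 fell at day 3, beside 6.7% of all genes higher and 5.29% lower, and 6 rose and 3 fell at day 10, beside 7.58% higher and 5.34% lower. The target Gsc rose in the FBS arm by 2.34 at day 3 (SE 0.48, limma adjusted p = 0.0225) and by 2.42 at day 10 (SE 0.48, limma adjusted p = 0.0177), days at which Lefty2 was higher than at day 0 in the same arm. Gdf1, a ligand that acts with Nodal, fell there by 1.90 at day 3 (SE 0.22, limma adjusted p = 0.00521) and by 2.08 at day 10 (SE 0.22, limma adjusted p = 0.00273). Pcsk6 rose by 1.66 at day 3 (SE 0.17, limma adjusted p = 0.00478) and by 2.16 at day 10 (SE 0.17, limma adjusted p = 0.00137). Inhbb fell in the serum-free arm by 3.06 at day 3 (SE 0.39, limma adjusted p = 0.00547) and Inhba by 2.60 (SE 0.45, limma adjusted p = 0.0136). Nodal itself rose by 0.76 in that comparison. In the FBS arm Inhbb changed by -0.62 at day 3, without passing, and by -2.10 at day 10 (SE 0.39, limma adjusted p = 0.0153). Inhba changed there by -0.93 at day 3 and -1.64 at day 10, neither passing.

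**Figure D5:**
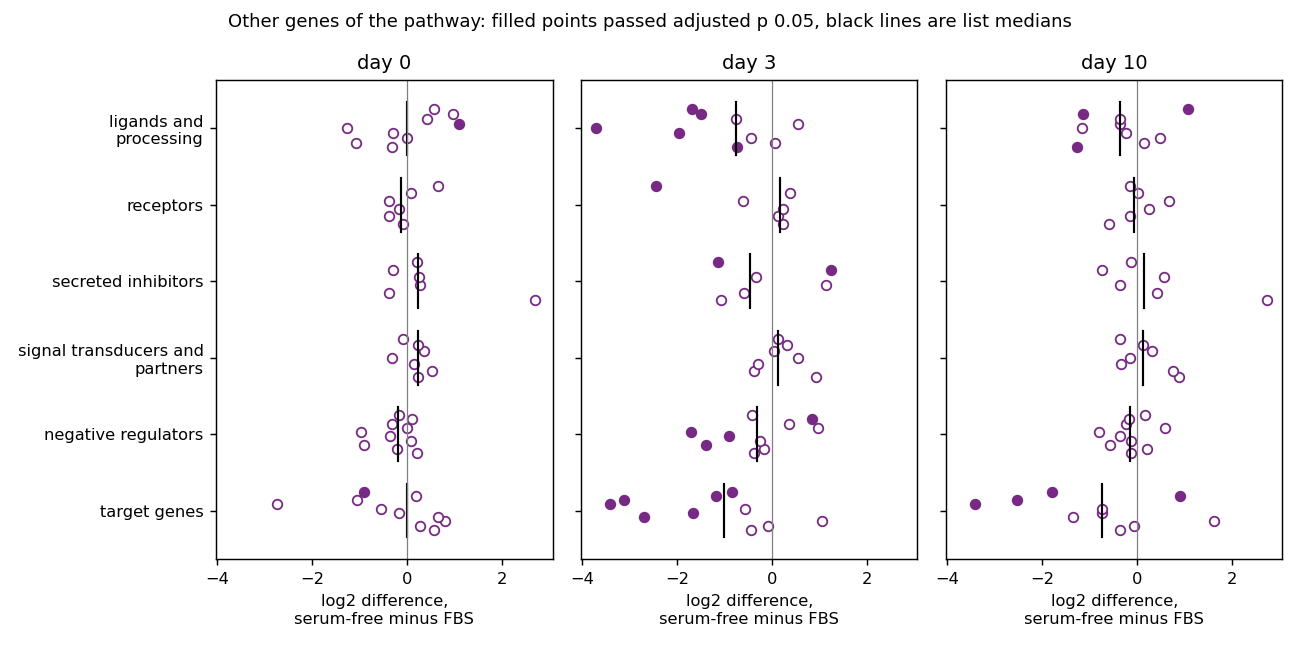
Log2 difference, serum-free minus FBS, of the 48 other tested pathway genes at days 0, 3 and 10, by list; each point is a gene, filled points had a limma adjusted p under 0.05 and black lines are list medians. At day 3, 16 genes were lower and 2 higher, and the filled points gather in the ligands and the targets, while none of the 7 signal transducers and partners is filled.

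For each of the 6 genes the 5 genes with the most similar levels over the 12 arrays were sought by Pearson r among 13417 genes above background on every array, as a description, since arrays share a line, an arm and slides. Lefty1 was most like Pim1 (r = 0.934), then Zfp768, Hmx2, Rab2b and Calr. Lefty2 was most like Lipe (r = 0.95), then Cd248, Nnmt, Isoc2b and Catsper3. Nodal was most like Dusp27 (r = 0.896), then Vcan, Car13, Ints6l and Arl16. No gene was in more than 1 of these lists, and no member was among the 5 of another. Some members still varied together: r was 0.86 for Tdgf1 with Skil and 0.85 for Lefty1 with Lefty2. Nodal and Smad7 ran opposite (r = -0.70). Tdgf1 was most like Fgf15 (r = 0.948), then Comp, Acsbg1, Ap1s3 and Gpd1l. Smad7 was most like Spag1 (r = 0.97), then Klk8, Sh3bp5, Hdgfl3 and Dusp22. Skil was most like Ankrd34b (r = 0.959), then Sestd1, Purb, Mid1ip1 and Prkcb.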

How the data were processed

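Total RNA of 12 samples was labelled with Cy3 and hybridised to one-colour arrays. The deposited spot intensity (processed signal) came from Agilent Feature Extraction 9.1.3.1 with background subtraction and detrending, per the file headers, and is written with 3 significant digits. The deposited mean, local background and background-subtracted intensity of each spot served for alternatives, and deposited 0 or 1 marks told which spots were above background, saturated or irregular. The series table the authors deposited names no processing; its values match a linear signal, background-subtracted intensity over the median of the array, within 1%, with a floor of 0.1.

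Control spots were left out. Log2 intensity minus the array's 75th percentile was averaged over spots of a probe. The brightest probe stood for a gene, and a gene needed to be above background on 2 or more arrays (21345 passed; 6 more with an irregular spot were dropped). R 4.3.3 with limma 3.58.1 fitted the 6 groups plus line (5 residual degrees of freedom, prior 2.53), while the difference over all days came from a model of arm, day and line. P-values were adjusted by Benjamini and Hochberg over all genes tested and called at 0.05. Alternatives were quantile normalization, normexp (offset 50), normexp with 10 local backgrounds above 10 times the array median replaced, the authors' table, no filter, a filter for signal above background on every array, each probe on its own, no line block, the slide as a block and leaving out each array. The test of the day 3 arm difference was checked on simulated arrays with independent normal noise, a line shift and no slide effect. That check cannot speak to the overlap of slide and arm.

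Each group's arrays are the same pair of lines, so the line pairs them: across genes, the differences between lines correlated over 15 pairs of groups at -0.051 to 0.571 (median 0.156, 13 over 0.1). Genes named are the 6 members, up to 6 called pathway genes per comparison by size and the 5 most alike per member; a few pathway genes that qualify are not reported here. The members and lists were chosen with earlier results of these data known. Promoters are from RefSeq (GRCm38.p6).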

Additional observations from a re-analysis of the deposited data

How the results depend on the processing

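All 21 called results on the 6 genes kept their direction under every alternative tried, and the Lefty2 difference at day 3 kept its call under all of them. Counts of called members moved as follows, without the share of all genes called under each alternative. With slide as a block, the arm differences at day 0, at day 10 and over all days had no called gene at all. With normexp, neither the day 0 arm difference nor the serum-free day 10 change had any called gene. At day 0 the count of 1 became 2 with quantile normalization, 0 with normexp, 3 with normexp and repaired backgrounds, 2 among genes above background on all arrays and 0 with slide as a block. At day 3 the count of 3 became 1 with normexp and 2 with each of the authors' table, no filter, no line block and slide as a block, and quantile normalization exchanged Tdgf1 (adjusted p = 0.0889) for Nodal (0.0278). At day 10 the count of 3 became 0 with normexp and with slide as a block, and 2 with the authors' table and no filter (Smad7 lost, adjusted p = 0.0538 and 0.0525) and with no line block (Lefty1 lost, 0.0565). In the serum-free arm the day 3 count of 2 became 0 with normexp, 4 with repaired backgrounds, 1 each with the authors' table, no filter and no line block, and 3 each among genes above background on all arrays and with slide as a block (Tdgf1 gained). The serum-free day 10 count of 1 became 0 with normexp and with slide as a block. In the FBS arm the day 3 count of 4 became 0 with normexp, 2 with the authors' table, 2 with no filter, 1 with slide as a block, and 3 with quantile normalization (Lefty2 lost) and no line block (Tdgf1 lost). The FBS day 10 count of 3 became 1 with each of normexp, the authors' table, no filter, no line block and slide as a block, and 4 with repaired backgrounds. Over all days 3 became 0 with slide as a block, 2 with each of normexp, the authors' table, no filter and no line block (Tdgf1 lost), and 4 with repaired backgrounds (Skil gained, adjusted p = 0.0473). For the line 1 became 0 with normexp and with slide as a block. With each probe on its own, the dimmer Skil probe added 1 call at day 3, at FBS day 10 and over all days. The difference of the day 3 changes, 0 of 6, became 1 (Lefty2, -1.32, adjusted p = 0.0476) with repaired backgrounds. The cause was not tested.

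Leaving out 1 array at a time gave 0 to 1 members at day 0, 1 to 3 at day 3 and 0 to 3 at day 10. It gave 0 to 2 and 0 to 1 for the serum-free changes at days 3 and 10, 0 to 4 and 0 to 3 for the FBS changes, 2 to 3 over all days and 0 to 1 for the line. It left 0 throughout for the changes between days 3 and 10 and for both differences of changes. A group left with 1 array was taken to vary like the others. The main fit has the line as the replicate block. Without the block (the pairing ignored) the count was 1 of 6 at serum-free day 3 (Nodal lost) and 1 of 6 at FBS day 10 (Tdgf1 and Skil lost). Without it Tdgf1 also lost its calls in the day 3 arm difference (adjusted p = 0.329), at FBS day 3 (0.351) and over all days (0.236), and Lefty1 in the day 10 arm difference (0.0565).

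Among all called genes, the share higher at day 3 was 39.8%, against 50.8% with quantile normalization, 52.7% in the authors' table and 20.2% with normexp. At day 0 it was 54.2%, against 68.8% in the authors' table and 64.1% with quantile normalization, and at day 10 it was 35.7%, against 21.9% in the authors' table and 48.6% with repaired backgrounds. With 1 array per line and group, slide, line and arm overlap in part, and no day 0 or day 10 arm difference has a within-slide value. The members' signals were above background on every array, but the dimmer Skil probe read only 11% to 24.9% of the 75th percentile on serum-free arrays.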
